A study of Mus musculus with 18 samples.

Results

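The C-type lectin, Siglec and CD300 receptor genes were taken as the protein-coding genes of the mm9 annotation (GENCODE vM1) whose symbol starts with Clec, Siglec or Cd300. The rule found 46 of 22367 genes on chromosomes 1 to 19, X and Y, namely 32 Clec, 8 Cd300 and 6 Siglec genes, and 24 of the Clec genes lie on chromosome 6. Binding of 3 transcription factors around them (PU.1, C/EBPα and its relative C/EBPβ) was read from 18 ChIP-seq libraries of C10 cells, a line derived from mouse HAFTL pre-B cells that carries a C/EBPα–estrogen receptor fusion with GFP. Induction was by β-estradiol (β-Est), the ligand of the fusion, given here together with IL-3 and CSF-1, and gives the line features of macrophages. Control cells received the solvent, ethanol. C/EBPα was profiled in 8 libraries (0 hr post-induction (hpi), 10, 30 and 60 min, and 3, 12, 24 and 48 hpi), and the other two factors in 5 each, without the 10, 30 and 60 min times. All libraries come from this 1 line, which carries the fusion also at 0 hpi, and the C/EBPα antibody was not stated to tell the fusion from the endogenous protein. Each factor and time point had 1 library, so values are set side by side with exact Poisson 95% intervals, which cover counting error only, and no test between libraries was possible. The libraries hold no RNA, so neither the cell type nor the level of any receptor can be read from them.

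Many of these genes encode surface proteins with which leukocytes, above all myeloid cells, recognise sugars, lipids and other ligands. Another 6 were listed as secreted or not immune receptors. A further 7 were listed as Clr proteins, a family of NK cell receptor ligands. Activating members include Dectin-1 (*Clec7a*), Dectin-2 (*Clec4n*), Mincle (*Clec4e*) and the CD300 protein LMIR5 (*Cd300lb*). They signal through ITAM motifs, their own or those of the adaptors FcRγ and DAP12. Inhibitory members such as *Cd300a*, *Clec12a*, *Clec4a2* and several Siglecs carry ITIM motifs that recruit phosphatases. C/EBPα and C/EBPβ bind as dimers to a palindromic motif and PU.1, an Ets factor, binds to a purine-rich motif, and both kinds of factor are known to act at enhancers of myeloid genes.

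For each gene and factor the summit was the 200-bp bin within 10 kb of the gene with the highest sum of normalised reads (reads per 10000000 reads of the library) over the libraries of that factor. Below are mm9 forward-strand sequences of 10 such bins, on which the later comparisons turn: the C/EBPα bins with the highest values in the Cd300 cluster, bins with early, late and transient C/EBPα, and examples of bins where C/EBPβ or PU.1 was raised or lowered. Capitals mark the C/EBP motif TTGCNNAA and the PU.1 core GAGGAA, extended to GAGGAAGT where those letters follow, each on either strand.
*Cd300a*, C/EBPα, chr11:114769001-114769200, downstream of the gene: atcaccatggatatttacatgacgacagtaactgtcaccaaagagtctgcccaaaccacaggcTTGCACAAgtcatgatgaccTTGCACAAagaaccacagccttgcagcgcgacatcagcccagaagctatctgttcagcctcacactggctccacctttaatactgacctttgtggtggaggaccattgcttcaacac
*Cd300lb*, C/EBPα, chr11:114792401-114792600, intron, no match: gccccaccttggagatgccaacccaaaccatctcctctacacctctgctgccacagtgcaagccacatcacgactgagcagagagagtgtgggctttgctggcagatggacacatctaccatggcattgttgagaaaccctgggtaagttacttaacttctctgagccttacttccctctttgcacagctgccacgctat
*Clec12a*, C/EBPα and C/EBPβ, chr6:129300001-129300200, near the start site: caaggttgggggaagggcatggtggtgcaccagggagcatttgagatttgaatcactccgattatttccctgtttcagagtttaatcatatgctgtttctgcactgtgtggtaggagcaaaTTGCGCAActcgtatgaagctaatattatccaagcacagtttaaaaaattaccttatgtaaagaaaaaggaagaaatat
*Siglec1*, C/EBPα and C/EBPβ, chr2:130916801-130917000, upstream: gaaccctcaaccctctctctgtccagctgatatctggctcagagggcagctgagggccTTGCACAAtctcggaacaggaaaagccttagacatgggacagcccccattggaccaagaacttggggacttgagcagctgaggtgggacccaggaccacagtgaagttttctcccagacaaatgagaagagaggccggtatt
*Clec4n* and *Clec4d*, C/EBPα, chr6:123203001-123203200, between the genes: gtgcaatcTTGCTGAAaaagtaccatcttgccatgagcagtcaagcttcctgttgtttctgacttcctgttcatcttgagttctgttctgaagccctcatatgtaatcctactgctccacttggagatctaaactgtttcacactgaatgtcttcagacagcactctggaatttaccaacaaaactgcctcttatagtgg
*Clec7a*, C/EBPα, chr6:129428401-129428600, upstream: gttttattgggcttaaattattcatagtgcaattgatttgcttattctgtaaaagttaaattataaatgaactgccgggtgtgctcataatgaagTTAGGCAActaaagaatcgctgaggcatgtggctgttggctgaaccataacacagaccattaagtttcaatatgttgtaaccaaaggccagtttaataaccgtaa
*Clec2d*, C/EBPβ, chr6:129121801-129122000, intergenic: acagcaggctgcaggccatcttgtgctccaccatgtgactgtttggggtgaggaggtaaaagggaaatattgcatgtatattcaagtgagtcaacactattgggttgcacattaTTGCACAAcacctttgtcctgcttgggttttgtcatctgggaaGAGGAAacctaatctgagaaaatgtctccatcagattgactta
*Cd300lb*, PU.1, chr11:114778601-114778800, intergenic: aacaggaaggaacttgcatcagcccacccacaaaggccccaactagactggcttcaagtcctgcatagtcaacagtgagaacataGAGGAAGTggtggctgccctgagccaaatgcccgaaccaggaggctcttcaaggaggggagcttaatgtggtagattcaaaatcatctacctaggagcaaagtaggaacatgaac
*Siglece*, PU.1, chr7:50898001-50898200, intron of *Ceacam18*: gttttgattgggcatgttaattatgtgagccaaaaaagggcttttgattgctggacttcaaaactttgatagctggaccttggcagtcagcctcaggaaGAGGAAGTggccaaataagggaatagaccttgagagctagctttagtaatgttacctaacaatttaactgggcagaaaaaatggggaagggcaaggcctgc
*Siglech*, PU.1 and C/EBPα, chr7:63040001-63040200, intergenic: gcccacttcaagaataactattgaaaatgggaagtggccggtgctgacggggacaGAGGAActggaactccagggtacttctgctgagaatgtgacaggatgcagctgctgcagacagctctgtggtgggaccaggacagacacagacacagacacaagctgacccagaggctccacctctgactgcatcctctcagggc

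The letters TTGCACAA occurred at both motif positions of the *Cd300a* bin and once each in the *Siglec1* and *Clec2d* bins, and the *Clec12a* bin held the full palindrome TTGCGCAA. Over the 22 distinct C/EBPα summit bins of members called in at least 1 library, 9 held TTGCNNAA (40.9%), beside 35.4% of 7660 such bins of all genes and 8.77% of all 8349 bins of the members' loci. Of the 23 distinct C/EBPβ summit bins 8 held it (34.8%), below the 45.7% of all genes. GAGGAA occurred in 25 of 35 distinct PU.1 summit bins (71.4%, against 54.3% for all genes) and the longer GAGGAAGT in 9 (25.7% against 25.9%). Of the 3 bins with the highest C/EBPα values, that of *Cd300a* held TTGCNNAA and those of *Cd300lb* and *Clec5a* held none of these letters in their 200 bp. GAGGAA lies within GAGGAAGT, so a bin with the longer motif is counted under both.

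A bin was called enriched where its reads exceeded a Poisson threshold of 1e-06 against the larger of the genome mean and the mean of the bins within 5 kb, and were at least 4 times that mean. No input library was used, so every call is relative to the surroundings of the bin in the same library. The C/EBPα libraries held 5970869 to 24917810 reads, those of C/EBPβ 2903580 to 5844202 and those of PU.1 6575348 to 11349746, which sets the lowest value that can be called at 5.62 to 13.4, 13.7 to 20.7 and 8.81 to 12.2 normalised reads. The C/EBPα libraries at 10, 30 and 60 min were sequenced on another instrument with longer reads (50 bases, against 36), so these early times and the instrument cannot be told apart. The loci of 17 members overlap those of other members in 6 blocks, so members are not independent sites. A median of 1.86% of bins per member locus had no read in any library, against 0.888% over all genes.

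At 0 hpi almost no C/EBP was called at the receptor loci. *Clec12a* was the only member with an enriched C/EBPα bin at 0 hpi (1 of 46, 2.17%), where 7.19% of all genes had one, and it was also the only member with C/EBPβ (2.17%, against 2.31%). The members with an enriched C/EBPα bin then numbered 9 at 10 min (19.6%, against 19.0% of all genes), 19 at 30 min (41.3%, 27.6%), 20 at 60 min (43.5%, 34.6%), 19 at 3 hpi (41.3%, 34.8%), 18 at 12 hpi (39.1%, 25.2%), 21 at 24 hpi (45.7%, 21.1%) and 21 at 48 hpi (45.7%, 19.5%). Over all genes the share with C/EBPα was highest at 3 hpi and was lower at 48 hpi, whereas that of the receptor genes was as high at 48 hpi as at any earlier time. For C/EBPβ, members with an enriched bin numbered 11 at 3 hpi (23.9%, against 13.0%), 12 at 12 hpi (26.1%, 8.31%), 15 at 24 hpi (32.6%, 14.9%) and 23 at 48 hpi (50.0%, 27.4%). PU.1 was present at 18 members already at 0 hpi (39.1%), which was below the share of all genes (49.9%), and at 22 at 3 hpi (47.8%, 53.3%), 32 at 12 hpi (69.6%, 67.1%), 31 at 24 hpi (67.4%, 59.7%) and 32 at 48 hpi (69.6%, 56.5%). With each library thinned to the smallest of its factor, the members with C/EBPα were 5 at 10 min (10.9%, against 8.22% of all genes), 12 at 30 min (26.1%, 20.9%), 14 at 60 min (30.4%, 23.2%), 14 at 3 hpi (30.4%, 27.1%), 18 at 12 hpi (39.1%, 25.2%), 18 at 24 hpi (39.1%, 18.1%) and 20 at 48 hpi (43.5%, 16.6%), and those with C/EBPβ at 3 hpi were 6 (13.0%, 7.60%). For PU.1 the thinned counts were 18 at 0 hpi (39.1%, against 48.2%), 22 at 3 hpi (47.8%, 53.3%) and 28 at 12 hpi (60.9%, 61.5%). They were 27 at 24 hpi (58.7%, 52.0%) and 29 at 48 hpi (63.0%, 50.7%). Without thinning, all 3 factors had an enriched bin at 48 hpi in 19 member loci (41.3%), against 14.9% of all genes.

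**Figure D1:**
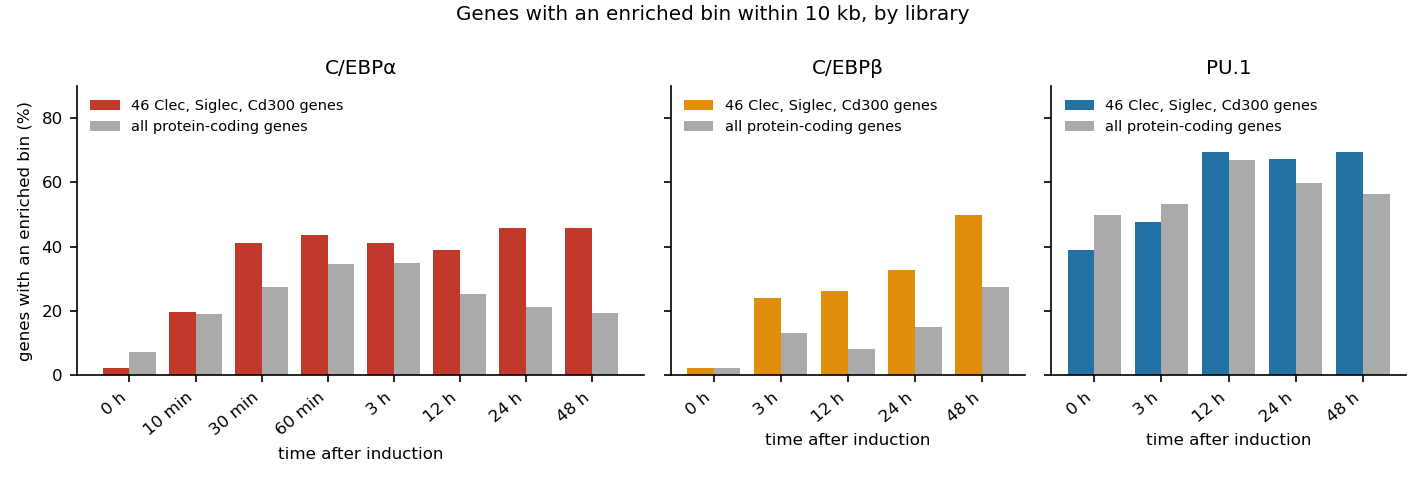
Share of genes (y axis, %) with an enriched bin within 10 kb in each library (x axis, time after induction) for each factor; coloured bars are the 46 Clec, Siglec and Cd300 genes and grey bars all 22367 protein-coding genes, each bar from 1 library. The coloured C/EBPα bar stands at 45.7% at 48 h beside a grey bar of 19.5%, while for PU.1 at 0 h the coloured bar (39.1%) is below the grey one (49.9%).

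Binding at 48 hpi was set against that at 0 hpi in the summit bin of each gene, a bin that had been chosen with both libraries. A summit was called raised where the value at 48 hpi was at least 2 times that at 0 hpi, the 2 Poisson intervals did not overlap and the bin was enriched in either library. C/EBPα was raised at 16 members in 14 distinct bins (34.8%, against 8.44% of all genes), C/EBPβ at 21 in 20 bins (45.7%, against 16.2%) and PU.1 at 14 (30.4%, against 7.14%). Neither C/EBPα nor C/EBPβ was lowered at any member (background 0.335% and 0.0492%), while PU.1 was lowered at *Siglech* and *Clec18a*, 4.35% of members beside 6.04% of all genes. Neither of these calls held in every setting: that of *Siglech* was lost with a flank of 2 kb, and that of *Clec18a* with a flank of 25 kb, thinned libraries, reads moved 50 bp or the summit of the 48 hpi library. By role, 7 of 14 activating receptors had raised C/EBPα, 8 raised C/EBPβ and 7 raised PU.1. *Clec4n* and *Clec4d*, both counted under raised C/EBPα, share 1 bin. Of the 9 inhibitory receptors 4 had raised C/EBPα, 6 raised C/EBPβ and 2 raised PU.1. For the 7 genes listed as Clr proteins these numbers were 0, 2 and 0. The 6 listed as secreted or not immune receptors had 1, 1 and 1, and the 10 other members 4, 4 and 4. Where the summit bin was picked from the 0 hpi library alone, the raised members fell to 2, 3 and 4 and the share over all genes to 1.52%, 2.89% and 2.47%.

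The 2 strongest C/EBPα sites of all members lay in the Cd300 cluster of chromosome 11, whose 7 annotated members span 264 kb with their flanks. *Cd300a*, an inhibitory receptor for phosphatidylserine, had C/EBPα values of 4.51, 3.21, 7.69, 10.2, 48.5, 131, 132 and 143 normalised reads over the 8 time points at a bin 17493 bp downstream of its start site. C/EBPα was not called there until 60 min and was near its highest value by 12 hpi, and the log2 ratio of 48 to 0 hpi was 4.99 (95% interval 3.59 to 6.89). C/EBPβ in the same bin had 2.33, 15.4, 44.8, 80.0 and 126. PU.1 stayed at or below 9.55 in that bin, and its own summit at the start site of *Cd300a* had 32.6, 25.9, 80.3, 74.0 and 63.1, higher at 12 hpi and later than at 0 and 3 hpi, while the value at 48 hpi was less than 2 times that at 0 hpi and so not called raised.

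*Cd300lb*, the DAP12-coupled LMIR5, showed C/EBPα earlier, with 2.26, 10.8, 52.3, 65.0, 107, 183, 128 and 138 in an intronic bin 3100 bp from its start site. The bin was called from 10 min on and its highest value, at 12 hpi, was 183 (95% interval 150 to 220). C/EBPβ in the same bin had 0, 49.6, 51.7, 80.0 and 90.6, and as no read fell there at 0 hpi its log2 ratio is at least 3.69, counted from a floor of 3 reads. C/EBPβ had no library between 0 and 3 hpi, so which of the C/EBP factors came first cannot be read. PU.1 had its summit 13800 bp away, with 4.25, 7.60, 41.1, 47.6 and 50.6. Each bin also held the other factor at 48 hpi, with C/EBPα at 17.6 in the PU.1 bin and PU.1 at 14.3 in the C/EBPα bin, both from no read at 0 hpi.

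*Cd300lf*, an inhibitory receptor, differed in that PU.1 was strong from the start, with 132, 189, 137, 137 and 167 at the start site and a log2 ratio of 0.34 (95% interval -0.03 to 0.72). The C/EBPα summit, 400 bp away, had 0, 4.82, 26.1, 30.7, 46.7, 48.6, 29.0 and 22.6, and as no read fell there at 0 hpi the log2 ratio is at least 2.74. C/EBPβ was raised in that bin, from 2.33 at 0 hpi to 31.5 at 48 hpi. In the PU.1 bin itself C/EBPα was also enriched from 30 min (10.0) to 48 hpi (31.4). The activating *Cd300e* had PU.1 in all 5 libraries (26.9, 33.5, 49.5, 37.0 and 20.1) and C/EBPα called only at 3 hpi. *Cd300ld*, also activating, and *Cd300c* had no called C/EBPα summit but raised PU.1, with 4.25, 9.12, 6.53, 14.1 and 24.8 and 0, 0, 14.0, 18.5 and 22.9. In the PU.1 bin of *Cd300c* C/EBPα was enriched at 24 hpi alone (17.1), and C/EBPβ was called 200 bp away at 12 hpi alone (27.6). C/EBPβ was raised at the start site of *Cd300ld*, from 0 at 0 hpi to 31.5 at 48 hpi, a log2 ratio of at least 2.17. *Cd300lg*, known from endothelium, lies apart from the cluster and had C/EBPα values of at most 13.4 at its summit. The bin was called at 30 min (9.23), 60 min (6.65) and 12 hpi (13.4).

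**Figure D2:**
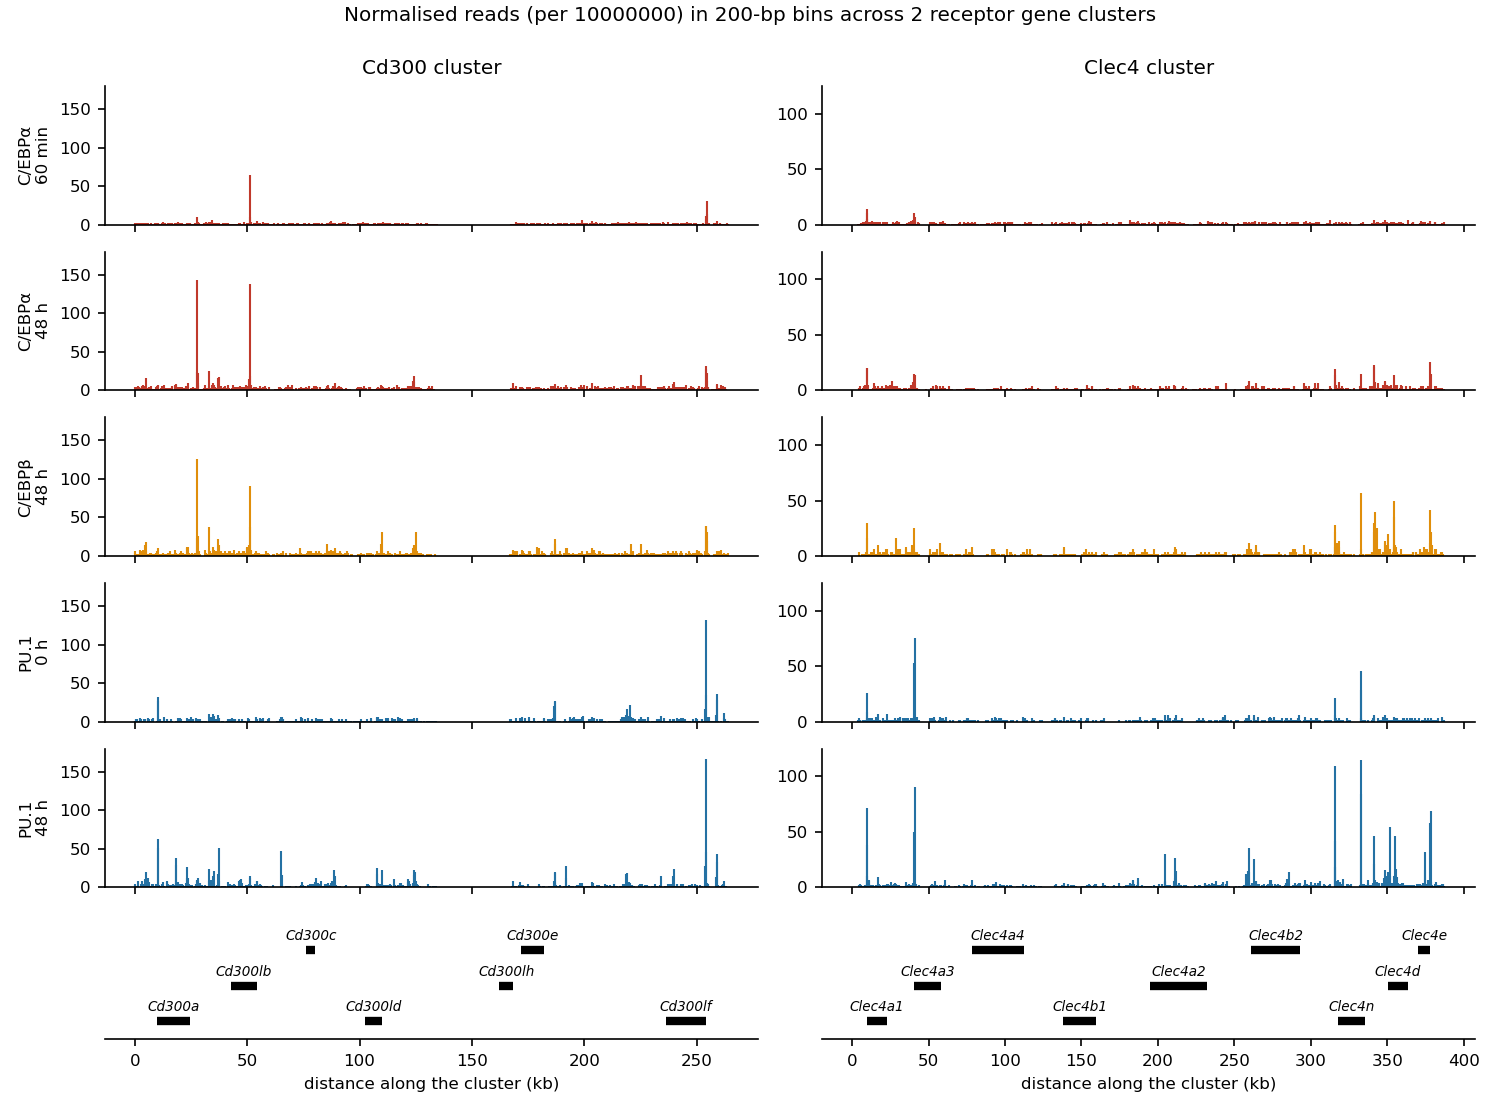
Normalised reads (y axis, per 10000000) in 200-bp bins along the Cd300 cluster (left) and the Clec4 cluster (right), against the distance from the cluster's start (x axis, kb), for C/EBPα at 60 min and 48 h, C/EBPβ at 48 h and PU.1 at 0 and 48 h, with the member genes as black bars. The highest C/EBPα value in the Cd300 cluster is 65.0 at 60 min (bin of Cd300lb) and 143 at 48 h (bin of Cd300a). The highest PU.1 value in the Clec4 cluster is 75.2 at 0 h (bin of Clec4a3) and 115 at 48 h (bin of Clec4n). Each is the maximum of its library, and the bins differ between the times.

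Among the activating C-type lectins, *Clec5a* (MDL-1, coupled to DAP12) had the strongest C/EBPα, with 1.13, 2.01, 12.3, 31.2, 59.3, 119, 113 and 129, and a log2 ratio of 6.84 (95% interval 4.33 to 12.20) from 1 read at 0 hpi. The bin lies in a UTR of *Clec5a*, 9293 bp downstream of its annotated start. The nearest start site is that of *Olfr460*, 5145 bp away. C/EBPβ in that bin had 4.67, 17.1, 68.9, 99.2 and 106 and PU.1 2.84, 7.60, 33.6, 17.6 and 54.5, so all 3 factors were higher there at 48 hpi than at 0 hpi. At the start site itself PU.1 had 19.9, 15.2, 50.4, 43.2 and 83.1, a log2 ratio of 2.07 (95% interval 1.24 to 3.00).

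The neighbouring genes of Dectin-2, MCL and Mincle (*Clec4n*, *Clec4d* and *Clec4e*), FcRγ-coupled receptors for fungal and mycobacterial ligands, had C/EBPα late. *Clec4n* and *Clec4d* shared 1 C/EBPα summit bin between the genes, with 0, 0.401, 3.85, 4.09, 8.99, 18.4, 15.8 and 22.6 normalised reads, and as no read fell there at 0 hpi the log2 ratio is at least 2.74. This bin was first called at 3 hpi. PU.1 in the same bin had 4.25, 1.52, 23.3, 25.6 and 45.9, a log2 ratio of 3.43 (95% interval 1.80 to 5.76). At the start site of *Clec4e*, C/EBPα had 2.26, 2.01, 1.54, 3.07, 7.19, 1.67, 17.1 and 25.1 and C/EBPβ 2.33, 3.42, 3.44, 22.4 and 41.4, and both were first called at 24 hpi. PU.1 in the adjoining bin had 1.42, 4.56, 12.1, 33.5 and 68.8, which is the largest log2 ratio of PU.1 among the members with reads at both times, 5.60 (95% interval 3.08 to 10.90), and rests on 1 read at 0 hpi. A further PU.1 site at a coding exon of *Clec4n* was enriched already at 0 hpi, with 45.4, 35.0, 54.1, 48.5 and 115. The C/EBPβ summit of *Clec4n* was the same bin and was raised, from 2.33 at 0 hpi to 57.1 at 48 hpi, when C/EBPα was also enriched there (15.1). C/EBPβ was raised also at *Clec4d*, in an intronic bin with 49.25 at 48 hpi.

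*Clec7a* (Dectin-1, the receptor for β-glucan) had C/EBPα early and for a short time. Its C/EBPα summit, 5711 bp upstream, had 0, 4.01, 43.8, 45, 46.7, 8.37, 2.64 and 3.77, called from 30 min to 3 hpi and not from 12 hpi on. C/EBPβ was likewise called there at 3 hpi only (4.67, 25.7, 13.8, 6.40 and 3.94), and PU.1 stayed at or below 3.04. Its C/EBPβ summit was another bin, in an intron 1089 bp from the start, with 2.33, 12.0, 31.0, 12.8 and 31.5 and a raised call. *Clec1b* (CLEC-2, of platelets) and *Siglec15* (of osteoclasts) had no C/EBP call at their summits, and PU.1 was highest there at 15.9 at 12 hpi and at 15.3 at 48 hpi, respectively.

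The inhibitory *Clec12a* (MICL) was the exception at 0 hpi, as its bin at the start site held both C/EBP factors before induction. C/EBPα had 31.6, 23.3, 92.3, 87.5, 109, 63.6, 39.5 and 40.2 and C/EBPβ 63.0, 85.6, 117, 128 and 179. C/EBPα was highest at 3 hpi and its log2 ratio of 48 to 0 hpi was 0.35 (95% interval -0.43 to 1.13), an interval that includes 0, whereas C/EBPβ was highest at 48 hpi with a ratio of 1.51 (95% interval 0.88 to 2.18). These 2 intervals overlap, and the difference between the factors was not tested. PU.1 in the C/EBP bin had 4.25, 45.6, 39.2, 13.2 and 18.2 and was called from 3 hpi on. Its own summit, 400 bp away, had 139, 126, 65.3, 67.8 and 82.2, with a ratio of -0.76 (95% interval -1.19 to -0.33) that is below the 2-fold limit of a lowered call. *Clec4a2* (DCIR), also inhibitory, had no C/EBP call at its summits, and its PU.1 at the start site had 2.84, 9.12, 17.7, 22.0 and 26.8.

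Of the Siglecs, *Siglec1* (CD169, of macrophages) had summit bins that were called late for all 3 factors, while other bins of the locus held C/EBPα at 30 min and PU.1 at 3 and 12 hpi. C/EBPα had 0, 2.41, 0, 0, 5.39, 18.4, 35.6 and 33.9 in a bin 4400 bp upstream of the start, first called at 12 hpi, and with no read at 0 hpi its log2 ratio is at least 3.33. C/EBPβ in that bin had 4.67, 1.71, 10.3, 44.8 and 90.6, a ratio of 4.28 (95% interval 2.34 to 7.37). PU.1 had its summit in the adjoining bin, with 0, 3.04, 9.33, 30.0 and 15.3, and was called at 24 and 48 hpi.

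*Siglec5*, an older symbol of the eosinophil and alveolar macrophage receptor Siglec-F, had C/EBPα from 10 min on, with 4.51, 8.43, 29.2, 30.2, 29.7, 62.0, 52.7 and 46.5 in an intronic bin. C/EBPβ was called there at 48 hpi only (0, 3.42, 10.3, 22.4 and 29.6). *Siglecg*, an inhibitory receptor of B cells, had its C/EBPα summit called only at 24 and 48 hpi (1.13, 1.20, 2.31, 4.61, 1.80, 8.37, 27.7 and 36.4), a ratio of 5.01 (95% interval 2.42 to 10.40), whereas 1 or 2 other bins of its locus were called at each time from 30 min to 12 hpi. PU.1 at the *Siglecg* start site had 8.51, 9.12, 7.47, 10.6 and 0.955 and was called at 24 hpi only. *Siglece*, inhibitory in neutrophils and macrophages, had no called C/EBPα summit, but PU.1 in an intron of the neighbouring *Ceacam18* had 8.51, 21.3, 39.2, 46.7 and 63.1, with a ratio of 2.89 (95% interval 1.69 to 4.39). C/EBPβ was raised at *Siglece* too, from 0 at 0 hpi to 33.5 at 48 hpi in a bin 4970 bp upstream of the start site, a log2 ratio of at least 2.26. At 48 hpi 1 C/EBPα bin of the locus, outside the summit, was enriched.

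*Siglech*, a DAP12-coupled receptor known as a marker of plasmacytoid dendritic cells, was the 1 member where 2 factors were called in opposite directions. In a single intergenic bin 16470 bp from the start of *Siglech* and 9417 bp from that of *Tubgcp5*, PU.1 had 153, 186, 156, 103 and 65.9 and C/EBPα 2.26, 2.81, 4.61, 1.02, 8.99, 21.8, 29.0 and 26.4. PU.1 was highest at 3 hpi and lowest at 48 hpi, with a log2 ratio of -1.22 (95% interval -1.67 to -0.77), while C/EBPα was first called at 12 hpi, with a ratio of 3.55 (95% interval 1.52 to 6.69). C/EBPβ was not called in this bin, making it the exception among the 18 members whose C/EBPα summit was called at 48 hpi. The other member with lowered PU.1, *Clec18a*, had 18.4, 7.60, 3.73, 4.41 and 2.87 from 13 reads at 0 hpi and 3 at 48 hpi, a ratio of -2.69 (95% interval -5.14 to -0.82).

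*Clec2d*, which encodes Clr-b, the ligand of the NK cell receptor NKR-P1B, had 2 bins in which C/EBPα took different courses. In an intronic bin C/EBPα had 4.51, 14.4, 63.1, 76.8, 52.1, 8.37, 9.23 and 0, called from 10 min to 3 hpi and without a read at 48 hpi, while C/EBPβ there had 2.33, 20.5, 10.3, 22.4 and 31.5 and was highest at 48 hpi. In a bin 8732 bp upstream C/EBPα had 3.38, 2.41, 13.1, 16.4, 35.9, 33.5, 38.2 and 79.2 and C/EBPβ 0, 25.7, 10.3, 64.0 and 134, both highest at 48 hpi. C/EBPβ at the latter had no read at 0 hpi, so its log2 ratio is at least 4.26. The summit of C/EBPα was set by the sum over all libraries and so fell on the first bin, which is why *Clec2d* is not among the members with raised C/EBPα.

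Of the remaining members named by the rule, *Clec4g* (LSECtin, of liver sinusoidal endothelium) had the highest PU.1 value of all, 191 (95% interval 161 to 227) at 0 hpi. PU.1 there was 191, 172, 156, 106 and 107 over time, a ratio of -0.84 (95% interval -1.21 to -0.47), and C/EBPα in the same bin had 10.1, 16.9, 52.3, 50.7, 45.8, 43.5, 38.2 and 56.6. *Clec16a*, named a lectin but not a surface receptor, had C/EBPα highest at 60 min (3.38, 4.01, 48.4, 79.8, 33.2, 48.6, 34.3 and 22.6) and PU.1 highest at 12 hpi in a bin 13400 bp away (12.8, 12.2, 98.9, 68.7 and 39.2). Raised PU.1 was found also at *Clec10a*, the macrophage galactose lectin (26.9, 33.5, 51.3, 47.6 and 60.2), at *Clec4a1* (25.5, 25.9, 52.3, 57.3 and 71.7) and at *Clec4b2* (2.84, 3.04, 14.0, 31.7 and 35.4). Of these 3, only *Clec4a1* had a called C/EBP summit, in the same bin as its PU.1.

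The C/EBPα summits fell into groups by the libraries in which they were called. Of the 22 distinct bins, 1 was first called at 0 hpi, 7 at 10 min, 6 at 30 min and 2 each at 60 min, 3, 12 and 24 hpi. First calls were not counted over all genes, and the libraries at 10, 30 and 60 min are the deepest of C/EBPα. The median value of the 22 bins was 2.26 at 0 hpi, 21.8 at 60 min, 28.3 at 3 hpi, 19.3 at 12 hpi, 28.3 at 24 hpi and 23.9 at 48 hpi. Over the called summits of all genes it was 3.38, 12.3, 16.2, 13.4, 9.23 and 7.54 at these times. At 24 members the summit was called in at least 1 library (52.2%, against 43.8% of all genes). At 12 of them it was called by 60 min and again at 48 hpi (50.0%, against 27.6% of all called summits), at 6 it was first called at 3 hpi or later and was called at 48 hpi (25%, against 9.22%), and at 4 it was called by 60 min but not at 12, 24 or 48 hpi (16.7%, against 32.4%). The last group comprised *Clec7a*, *Clec2d*, *Clec2g* and *Clec2l*, the last 2 named because they complete the count. The grouping is by summit bin alone, and of the late group the loci of *Siglec1*, *Siglecg* and *Siglech* had another C/EBPα bin called at 30 min. Of the transient group, the loci of *Clec2d* and *Clec2g* had other C/EBPα bins called at 24 and 48 hpi. In the 5 distinct bins of the late group the median was 18.4 at 12 hpi and 26.4 at 48 hpi, and in the 4 bins of the transient group it was 36.8 at 3 hpi and 2.51 at 48 hpi. A call needs more normalised reads in a shallow library, and the libraries at 12, 24 and 48 hpi are the shallowest of C/EBPα. Values of the 4 transient bins at 48 hpi ranged from 0 (*Clec2d*) to 3.77 (*Clec7a* among them). The *Clec2l* bin was called in 1 library only, at 15.4 at 60 min, where a call at 12 to 48 hpi needs 11.3 to 13.4. Whether depth bears on this group was not tested.

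**Figure D3:**
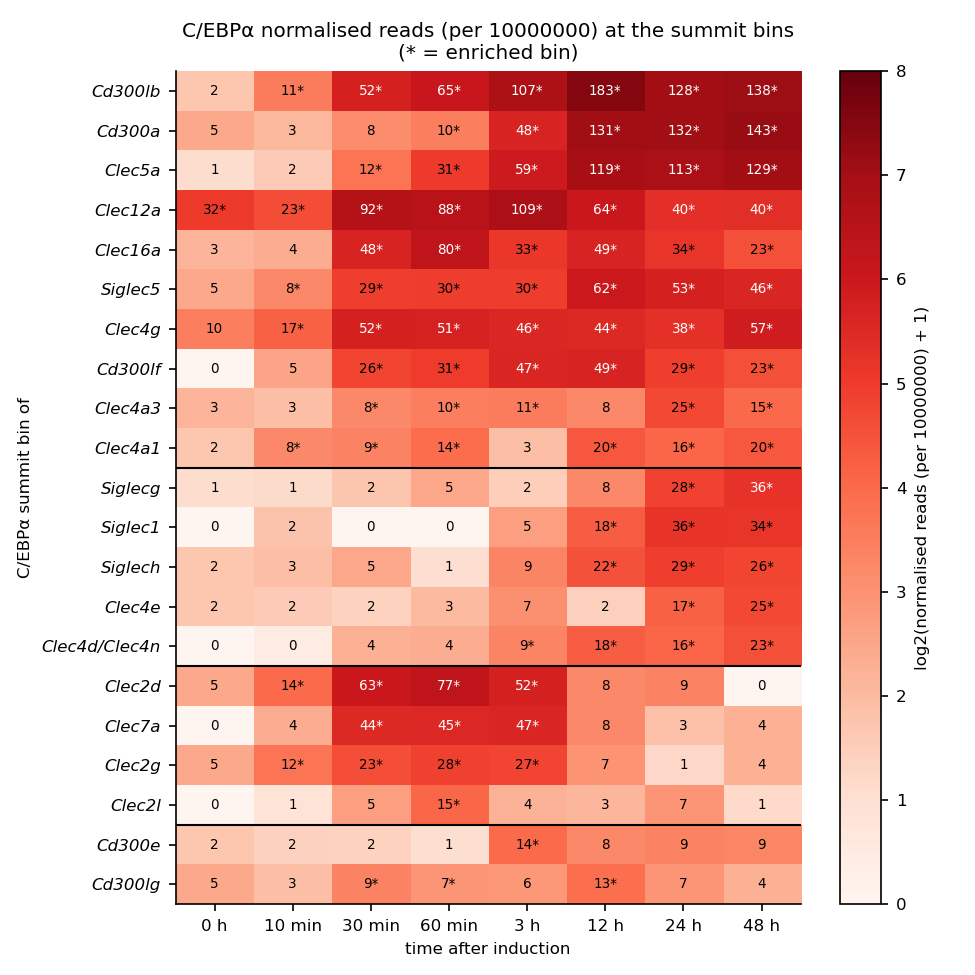
C/EBPα normalised reads (number in each cell, colour on a log2 scale of the value plus 1) at 21 of the 22 distinct called summit bins (rows, named by gene) in the 8 libraries (columns, time after induction); an asterisk marks an enriched bin. From top to bottom, lines separate bins called by 60 min and at 48 h, bins first called at 3 h or later, bins called by 60 min and in none of the libraries from 12 h on, and 2 others; numbers are rounded to whole numbers; Cd300lb reaches 183 at 12 h and Clec2d goes from 76.8 at 60 min to 0 at 48 h.

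**Figure D4:**
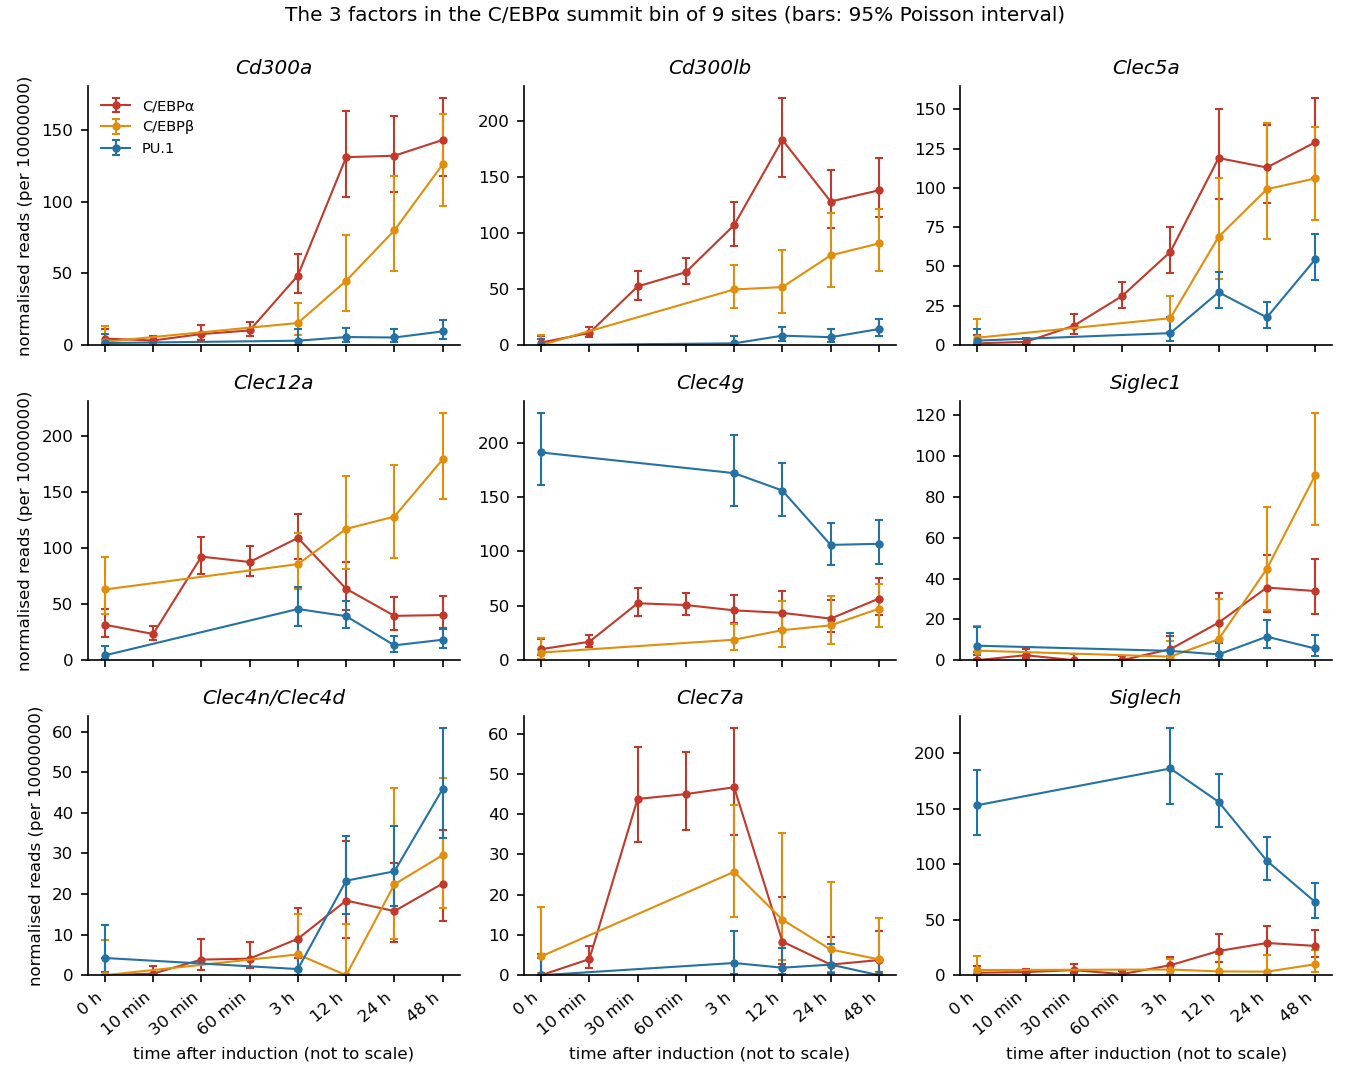
Normalised reads (y axis, per 10000000) of the 3 factors in the C/EBPα summit bin of 9 sites against time after induction (x axis, not to scale); points are single libraries and bars exact 95% Poisson intervals. At Cd300a both C/EBP factors rise while PU.1 stays at or below 9.55, at Clec4g PU.1 is at 106 or more throughout, and at Siglech PU.1 goes from 153 to 65.9 as C/EBPα goes from 2.26 to 26.4.

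At C/EBPα summits called at 48 hpi, PU.1 was called more often at 48 hpi than at 0 hpi. These summits were chosen by their call at 48 hpi. The PU.1 library was also deeper then (10465876 reads, against 7052065 at 0 hpi), and the count at 48 hpi was not repeated in thinned libraries. Of the 18 members whose C/EBPα summit was called at 48 hpi, in 16 distinct bins, 8 had an enriched PU.1 bin within 1000 bp at 0 hpi (44.4%, against 38.2% of such summits of all genes) and 14 had one at 48 hpi (77.8%, against 61.6%). Among the 8 were *Cd300lf*, *Clec4a1*, *Clec4a3*, *Clec12a*, *Siglech* and *Clec4g*, and the sites at *Cd300a* and *Cd300lb* were not among them. The share with PU.1 at 0 hpi was thus near that of all genes. C/EBPβ was called at 48 hpi in the C/EBPα summit bin itself for 17 of the 18 (94.4%, against 74.1%). Where both C/EBP factors had a called summit it was the same bin at 16 of 21 members (76.2%, against 67.6% of all genes). With each pair of summit bins counted once, C/EBPα and PU.1 summits fell into the same or adjoining bins in 9 of 22 pairs of the members (40.9%, against 21.4% of the pairs of all genes). The median distance was 2000 bp, beside 7600 bp over all genes. Summits are picked within the locus, which limits their distance. The median locus was 31900 bp for the members and 35400 bp over all genes, and no adjustment was made for this.

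**Figure D5:**
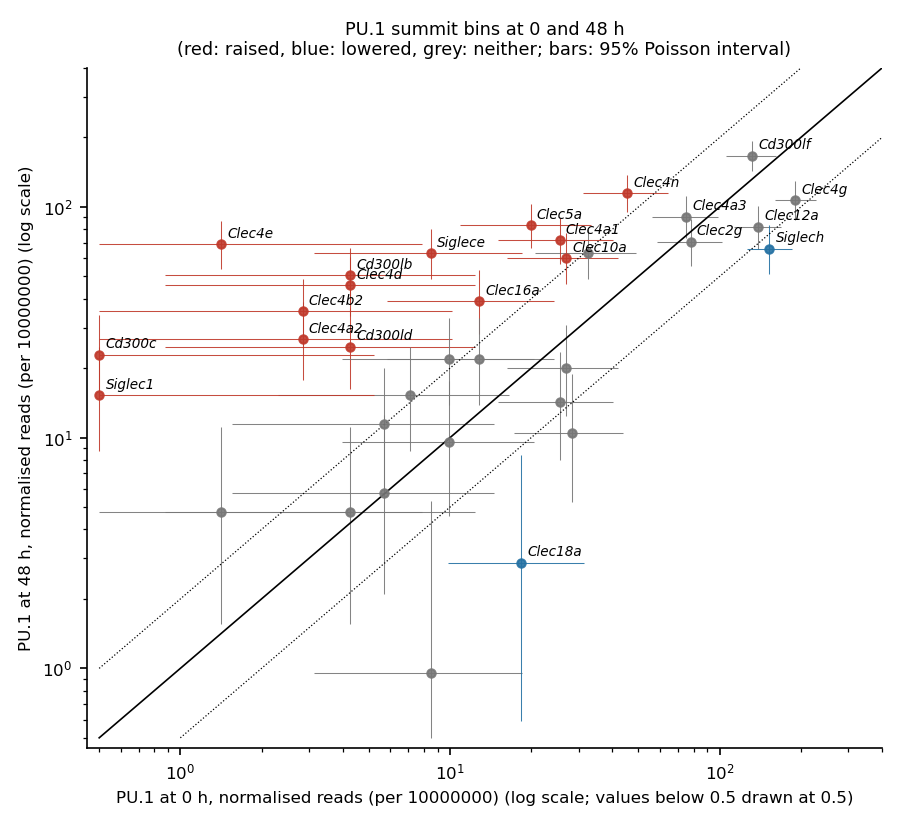
PU.1 normalised reads at 0 h (x axis, log scale) and 48 h (y axis, log scale) at 34 of the 35 distinct PU.1 summit bins called in at least 1 library; red points are raised, blue lowered and grey neither, bars are exact 95% Poisson intervals, values below 0.5 are drawn at 0.5, the solid line marks equal values and the dotted lines a 2-fold difference. Clec4e lies highest above the line among bins with reads at both times (1.42 and 68.8), and Siglech (153 and 65.9) and Clec18a (18.4 and 2.87) lie below it.

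Most of the called summits were not at start sites. Of the 22 distinct C/EBPα summits, 12 were intergenic, 9 intronic and 1 in a UTR, and 6 lay within 1000 bp of an annotated start site (27.3%, against 29.5% for all genes). For PU.1 it was 13 of 35 (37.1%, against 30.0%). The nearest start site belonged to one of the 46 genes for 19 of the C/EBPα and 31 of the PU.1 summits. The other summits were nearer to a gene of another family, as at *Siglece*, *Siglech* and the C/EBPα summit of *Clec5a*.

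Genes related by function were counted in the same way. Of 23 lectin and related receptors outside the symbol rule, C/EBPα was raised at 6 (*Asgr2*, *Mrc2*, *Lgals3*, *Trem2*, *Olr1* and *Cd33*), C/EBPβ at 7 and PU.1 at 4, where 8.44%, 16.2% and 7.14% of all genes had raised C/EBPα, C/EBPβ and PU.1, respectively. At *Cd33*, a Siglec by structure whose symbol the rule does not hold, C/EBPα went from 1.13 to 51.5 normalised reads. C/EBPβ went from 2.33 to 61.1 and PU.1 from 4.25 to 59.2 at this gene, each factor being read at its own summit. *Cd22* and *Mag*, on the same list, had no raised call for any factor, with C/EBPα at 10.1 and 3.38 at 0 hpi and 1.26 and 2.51 at 48 hpi. *Mrc1*, the macrophage mannose receptor, was the 1 gene of the 23 with lowered PU.1 (147 to 55.4), beside 6.04% of all genes. At the C/EBPβ summit of *Mrc1*, C/EBPβ went from 0 to 27.6. Of 14 signalling partners, C/EBPβ was raised at 13, C/EBPα at 6 and PU.1 at 2, and PU.1 was lowered at 1, *Ptpn6*, which encodes the phosphatase SHP-1 (118 to 45.9). The shares of all genes with raised C/EBPβ, C/EBPα and PU.1 were 16.2%, 8.44% and 7.14%, and the share with lowered PU.1 was 6.04%. The adaptor genes *Tyrobp* (DAP12) and *Hcst* (DAP10) lie together and had the same summit values for each factor, which are counted for both. C/EBPα at its summit went from 6.77 to 46.5 and C/EBPβ at its own from 2.33 to 55.2. PU.1 at its summit of these genes was not raised (99.3 and 95.5). At *Fcer1g* (FcRγ) PU.1 went from 12.8 to 108 and C/EBPβ from 2.33 to 37.4, and C/EBPα was not called at its summit at 0 or 48 hpi (2.26 and 7.54).

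At 9 members no bin was enriched in any of the 18 libraries (19.6%, against 26.2% of all genes). They were the receptor genes *Cd300lh*, *Clec4a4*, *Clec4b1*, *Clec4f* and *Clec12b*, the Clr genes *Clec2h* and *Clec2j*, and *Clec14a* and *Clec3a*. No library had a read in 56.1% of the bins of the *Cd300lh* locus, 18.9% at *Clec2h*, 15.4% at *Clec4b1*, 11.2% at *Clec4a4* and 9.76% at *Clec2j*. The share was 5.74% at *Clec14a*, 5.33% at *Clec12b*, 1.90% at *Clec4f* and 0 at *Clec3a*. Among loci with called bins it was 21.5% at *Clec10a* and 19.4% at *Clec4a3*. Only uniquely aligned reads were deposited, so that sites in sequence shared between copies are not seen. These families lie in clusters of similar genes, and whether this bears on the 9 loci was not tested. The annotation also names further Cd300-type genes of the cluster by other symbols, and these were not counted as members.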

How the data were processed

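The ChIP-seq data were deposited by the authors as positions of reads, 1 line a read, and not as read counts or peaks. Per the methods, base calls came from the Illumina pipeline, alignment to mm9 allowed no mismatch and used either Bowtie or ELAND, and identical reads and those placed at several sites were removed. The aligner used for each library is not given in the sources used here. Groups follow the factor and time in the labels.

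One read was kept per position and strand, its 5′ end was moved 75 bp inward, and reads were counted in 200-bp bins. Counts were scaled to 10000000 reads of the library on chromosomes 1 to 19, X, Y and the mitochondrial chromosome. Reads of PU.1 on other contigs (8859 to 14580 a library) were left out. The genome mean was taken over 2000000000 bp, and a floor of 3 reads stood for 0. Depth was 2903580 to 24917810 reads, with 1 library per factor and time, so no test between libraries was run.

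The members, gene lists and calls were chosen with earlier results of these data known. Genes were named if their summit bin was among the 12 highest for C/EBPα, the 8 highest for PU.1 or the 6 highest for C/EBPβ, or was raised or lowered for PU.1, or if they were among 22 receptors listed for their role. Other members are named only to complete a count, after their values were seen. A summit bin is counted in the totals but not reported here by itself. Alternatives in flank, depth, duplicates, threshold, shift, bin phase, scaling, fold and summit choice were run. The procedure was tested on simulated data. Python 3.11.15, numpy 2.4.6, scipy 1.17.1, pandas 2.3.3, pyarrow 21.0.0, pysam 0.24.0 and matplotlib 3.10.9 were used.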

Additional observations from a re-analysis of the deposited data

Results flagged for a closer look

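At *Siglech*, the intergenic bin that was the summit of both factors moved in opposite directions. The log2 ratio of 48 to 0 hpi was -1.22 for PU.1, from 108 reads at 0 hpi and 69 at 48 hpi, and 3.55 for C/EBPα, from 2 reads at 0 hpi and 21 at 48 hpi. It was looked at again because 2 factors were called in opposite directions in 1 bin. The difference between the ratios was not tested, since each factor and time had 1 library. The start site nearest to this bin is that of *Tubgcp5*.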

How the results depend on the processing

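Of 126 counts of members with an enriched bin under 7 alternatives, 123 stayed within 1.5 times the value in the report. The exceptions came with each library thinned to the smallest of its factor, where fewer reads make fewer calls: 5 members for C/EBPα at 10 min, 12 at 30 min and 6 for C/EBPβ at 3 hpi (10.9%, 26.1% and 13.0%, against 8.22%, 20.9% and 7.60% of all genes in the same thinned libraries). Of 34 counts of raised summits 31 stayed within that range. The 3 that did not were 2 for C/EBPα, 3 for C/EBPβ and 4 for PU.1 where the summit was taken from the 0 hpi library alone, which by construction leaves out bins without reads at 0 hpi. Of 34 counts of lowered summits 28 stayed. For PU.1 the count was 1 with a flank of 2 kb (*Clec18a*), and 1 (*Siglech*) with a flank of 25 kb, with thinning, with reads moved 50 bp and with the summit taken from the 48 hpi library. It was 4 at a fold of 1.5, which added *Clec12a* and *Clec4g*. The 9 alternatives for PU.1 at C/EBPα summits gave 7 to 10 members, and the number of called summits behind each count can differ. For named genes, 189 of 189 log2 ratios stayed within the 95% counting interval of the value in the report. That interval has no upper limit where no read fell at 0 hpi. A change of direction was looked for only where the interval left out 0, and none was found. Scaling to reads outside enriched bins moved all ratios by 0.041 (C/EBPα), 0.101 (C/EBPβ) and 0.0122 (PU.1) on the log2 scale and changed no call count by over 1.5 times. An alternative chosen after seeing the data, the C/EBPα summit without the 10, 30 and 60 min libraries, gave 17 raised members. Shares over all genes were counted only for enriched bins in thinned libraries and for summits of the 0 or 48 hpi library. The other alternatives were counted over the members only, so they do not show whether the difference from all genes holds. No paired analysis was possible because each factor and time point had 1 library. No alternative replaces a replicate or an input library.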
